A study of Mus musculus with 6 samples.

Results

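The renin-angiotensin system of the hippocampus was followed through 9 genes. Among them were Agt (the precursor angiotensinogen), Ren1 (renin) and Ace (the angiotensin-converting enzyme). The receptors were Agtr1a and Agtr2 (the AT1a and AT2 receptors of angiotensin II), Mas1 (the receptor of angiotensin 1-7) and Atp6ap2 (the prorenin receptor). The others were the aminopeptidases Enpep, which trims angiotensin II, and Lnpep. A probe set was taken as a member when its only gene symbol in the platform annotation was that of 1 of the 9 genes. This gave 10 of the 45101 probe sets on the chip, for 7 genes. Lnpep and Ren1 had no such probe set and were not analysed here. Of the 10 probe sets, 8 passed the filter on low signals, a mean of at least 100 in 1 or more groups, as did 23262 probe sets on the whole chip.

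Hippocampal RNA of male Tg2576 mice on a C57BL/6 background (C57BL/6J in the methods) was measured on 6 Affymetrix chips, 2 for each of 3 groups. The groups were 18 month-old Tg2576 mice given captopril at 20 mg/kg/day in their drinking water for 6 months (Tg-18mo-ACEI), untreated 18 month-old Tg2576 mice (Tg-18mo) and untreated 12 month-old Tg2576 mice (Tg-12mo), the age at which the treatment began. All 3 groups carry the transgene, human APP695 with the Swedish double mutation under a prion protein promoter, which is active in neurons, and no mouse without it was measured. Each chip carried the pooled RNA of 4 mice. The labels do not say whether the 2 pools of a group came from different mice, so p-values cover only how far chips of a group differ, which may be technical.

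In the classical pathway, renin cuts angiotensinogen to angiotensin I, and the angiotensin-converting enzyme trims that to angiotensin II, which raises blood pressure and drives oxidant production through the AT1 receptor. Other peptidases turn angiotensin I or II into angiotensin 1-7, the ligand of Mas1, or into shorter peptides. In the brain, astrocytes make most of the angiotensinogen, and the converting enzyme sits on the choroid plexus, on endothelial cells and on some neurons. Captopril blocks the active site of the converting enzyme, and its transcript is measured here, not its activity.

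Signals are the deposited linear intensities, scaled so that each chip has a trimmed mean of 600, and differences between groups are taken within a probe set. The sum over a marker list is led by its brightest genes, so it can differ from the median or mean log2 of the list. In the choroid plexus list, Ttr averaged 36377 at 12 months, where the list summed to 49670 and 49213. Over log2 signals, r was 0.987 to 0.992 within a group and 0.958 to 0.965 between groups. All 18 hippocampal neuron markers passed the filter, and their summed signal was 68370 to 69694 on the 6 chips. Their mean log2 signal lay above the 12 month-old mean at 18 months, by 0.19 and 0.25 with captopril and 0.18 and 0.14 without. Quality readings differed between the groups. The 18S rRNA control (3′ probe set) read 2214 and 2000 on the captopril chips, 10219 and 11144 on the untreated 18 month-old chips, and 2125 and 2121 on the 12 month-old chips. The 3′/5′ ratio of β-actin was 1.45 and 1.38 with captopril, 1.98 and 1.88 in untreated mice of 18 months, and 1.83 and 1.77 at 12 months. The brightest probe set of a chip reached 21934 to 25102 at 18 months, treated or not, and 39494 and 40190 at 12 months. The part of these readings in the results below was not tested.

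**Figure D1:**
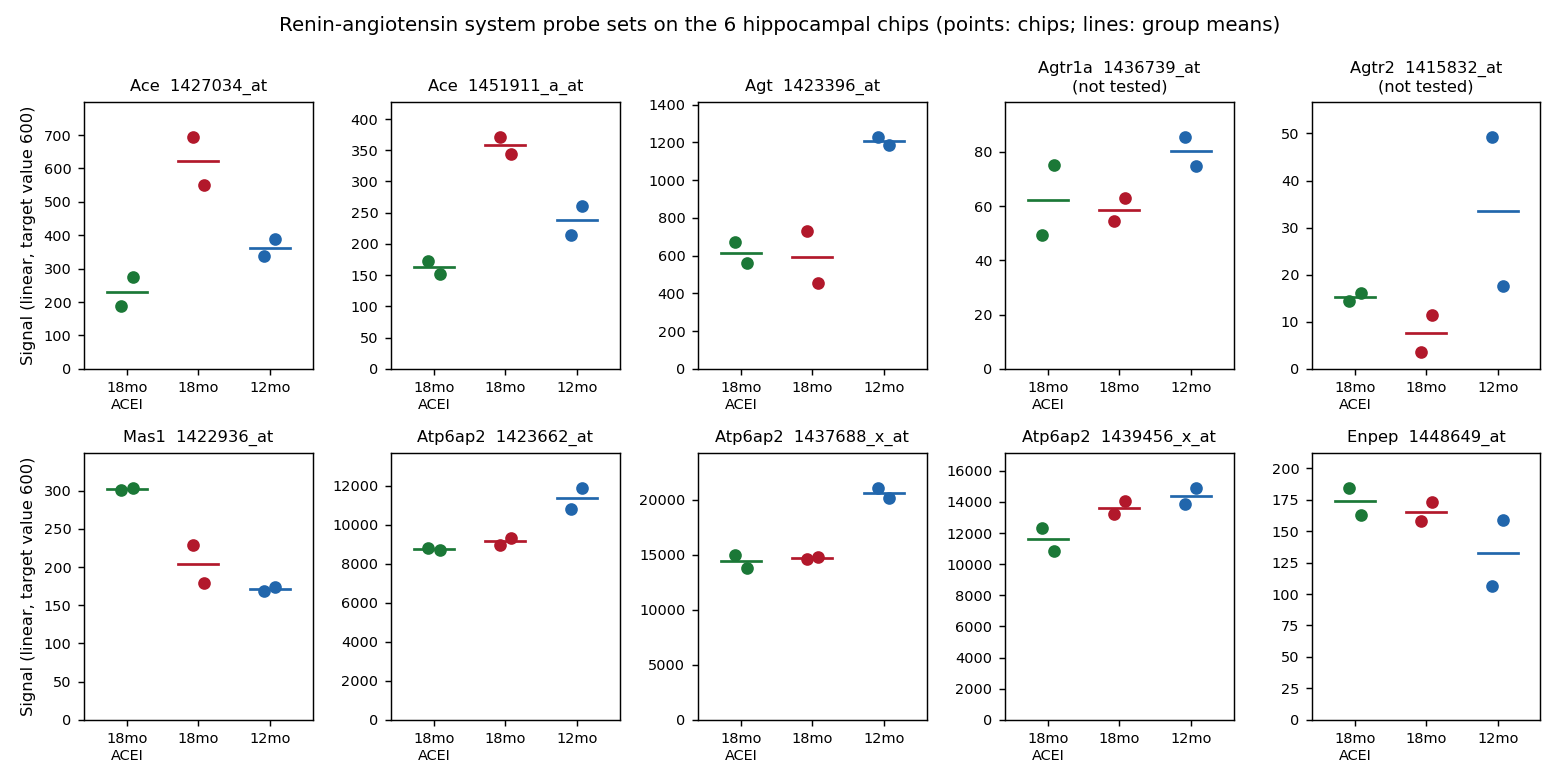
Signal of the 10 renin-angiotensin system probe sets on each chip (linear intensity, target value 600; each panel has its own axis from 0). Points are chips, lines group means, with captopril-treated 18 month-old, untreated 18 month-old and untreated 12 month-old Tg2576 mice from left to right; both Ace probe sets were highest in untreated 18 month-old mice (623 and 358 on average) and lowest with captopril (231 and 162).

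Captopril treatment went with lower Ace transcript. Mas1 was called higher, but that call was lost when certain single chips were left out. Of the 8 probe sets tested, 1 was higher in captopril-treated than in untreated 18 month-old mice (Mas1, 1.48-fold) and 3 were lower, both of Ace (2.69-fold and 2.21-fold) and 1 of 3 of Atp6ap2 (1.18-fold). Across the 23262 tested, 15.9% were called higher and 17.7% lower in the same comparison (limma, Benjamini-Hochberg adjusted p under 0.05). The chips of both groups did not overlap for 5 of the 8, against 71.4% of all probe sets. At an unadjusted p of 0.01 or less (limma) with at least a 2-fold difference, the thresholds of the methods, none of the 8 was higher and 2 were lower, the Ace probe sets, against 3.01% and 1.04% of all probe sets. The median log2 difference of the 8 was -0.047, against -0.045 across the 23262.

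Age went with lower Agt and with higher Ace, though the Ace calls were lost when certain single chips were left out. Of the 8, 2 were higher in untreated 18 month-old than in 12 month-old mice, both of Ace, and 3 were lower, Agt and 2 of 3 probe sets of Atp6ap2. After quantile normalization 3 were higher, with a probe set of Atp6ap2 added, and 1 was lower, Agt. On the whole chip, 25.9% of those tested were higher and 21.5% lower. Chips did not overlap for 6 of the 8, against 74.5% of all. Only Agt met the unadjusted p of 0.01 and the 2-fold difference, as 1 lower probe set, where 2.51% of all tested were higher and 1.78% lower. The median log2 difference was 0.082, against 0.046 across the 23262.

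In captopril-treated 18 month-old mice set against 12 month-old mice, which differ in both age and treatment, 1 of the 8 was higher (Mas1) and 6 were lower (both of Ace, Agt and all 3 of Atp6ap2). After quantile normalization 3 were higher, with 2 probe sets of Atp6ap2 turned to that side, and 3 were lower. On the whole chip, 22.3% of those tested were higher and 17.7% lower. Chips did not overlap for 8 of the 8, against 71% of all, and none of the 8 met the unadjusted p of 0.01 with a 2-fold difference, where 2.02% of all were higher and 1.23% lower. The median was -0.45, against 0.045 across the 23262. The 3 comparisons share chips in pairs, so their values stand side by side and are not independent of each other.

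**Figure D2:**
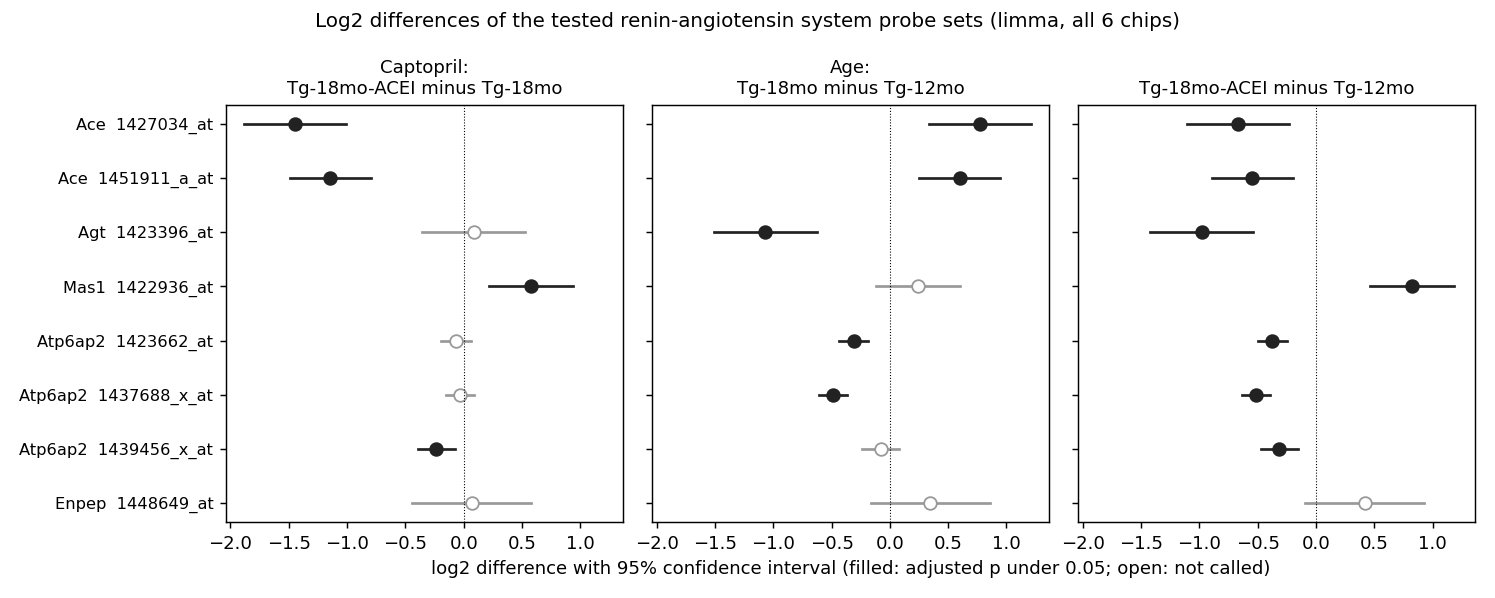
Log2 differences of the 8 tested probe sets with 95% confidence intervals (limma, all 6 chips), for captopril-treated against untreated 18 month-old mice, the 2 untreated ages (18 against 12 months), and captopril-treated 18 month-old against 12 month-old mice. Filled points have an adjusted p under 0.05; Ace lay below 0 with captopril (-1.45 and -1.14) and above 0 with age (0.78 and 0.60).

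Agt encodes angiotensinogen, the only known precursor of the angiotensin peptides. Its probe set 1423396_at read 670 and 558 in captopril-treated mice, 730 and 454 in untreated 18 month-old mice, and 1230 and 1184 in 12 month-old mice. The signal was thus lower on all 4 chips of 18 months than on either chip of 12 months, and the captopril chips lay between the untreated chips of the same age. The mean of 592 ± 195 in untreated 18 month-old mice, against 1207 ± 32.3 at 12 months (SD, n = 2 chips each), gave a log2 difference of -1.07 (SE 0.19, limma adjusted p = 0.00223), 2.04-fold lower. Captopril-treated mice, at 614 ± 79.5 (SD, n = 2 chips), were also lower than 12 month-old mice (log2 difference -0.98, adjusted p = 0.00423). Between captopril-treated and untreated 18 month-old mice the log2 difference was 0.087, with a 95% interval of -0.35 to 0.53 (adjusted p = 0.755). The untreated chips of 18 months were 1.61-fold apart. Without the first of them the captopril difference was 0.43 (adjusted p = 0.0457), and without the second -0.26 (adjusted p = 0.189). Of the 15 astrocyte markers tested, 4 were higher and 7 lower with age, against 25.9% and 21.5% of all probe sets. The median log2 difference was -0.19 (0.054 under quantile normalization). The summed signal of the list was 80710 and 83115 in untreated 18 month-old mice, against 95515 and 95578 in 12 month-old mice. Its mean log2 signal, in contrast, lay 0.057 and 0.074 above the 12 month-old mean on the untreated 18 month-old chips. With captopril against 12 months, 4 markers were higher and 6 lower (22.3% and 17.7% of all probe sets), with sums of 84751 and 81818 on the captopril chips. There the mean log2 signal lay 0.046 and 0.034 above the 12 month-old mean. In pooled tissue, fewer cells of a type and less RNA per cell cannot be told apart, and the part of the astrocyte markers in the Agt result was not tested.

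The promoter of Agt is printed because Agt had the largest drop with age among the members tested, and no probe set position or binding data bears on it. The window holds the 250 bases before the RefSeq start, chr8:124569707-124569956 on the minus strand of GRCm38.p6, read 5′ to 3′ along the gene. Capitals mark TATAAA, whose first base lies 30 bases before the start, and TTCNNNGAA, the spacing that STAT factors bind, which begins 172 bases before it.
Agt: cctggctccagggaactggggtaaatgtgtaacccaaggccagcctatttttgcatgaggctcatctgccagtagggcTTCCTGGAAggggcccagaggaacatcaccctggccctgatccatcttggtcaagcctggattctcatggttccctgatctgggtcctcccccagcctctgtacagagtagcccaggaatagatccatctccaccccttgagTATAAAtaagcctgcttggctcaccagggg
The window has a GC content of 55.6% and no CpG. On both strands, TATAAA occurs in 12.4% of 32851 RefSeq promoter windows of the same length and TTCNNNGAA in 7.02%.

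Ace encodes the converting enzyme itself, the target of captopril, and was measured by 2 probe sets. Probe set 1427034_at read 188 and 275 in captopril-treated mice, 695 and 551 in untreated 18 month-old mice, and 337 and 388 in 12 month-old mice. Probe set 1451911_a_at read 172 and 152 with captopril, 372 and 345 in untreated mice of 18 months, and 214 and 261 at 12 months. In both, every captopril chip lay below every 12 month-old chip, and every 12 month-old chip below every untreated 18 month-old chip.

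For 1427034_at the means were 231 ± 61.6 in captopril-treated and 623 ± 102 in untreated 18 month-old mice (SD, n = 2 chips each), a log2 difference of -1.45 (SE 0.19, limma adjusted p = 0.000827). For 1451911_a_at they were 162 ± 14.5 and 358 ± 19.2 in the same order, a log2 difference of -1.14 (SE 0.15, adjusted p = 0.000852). Both differences passed in each of the other limma fits, with each chip left out in turn among them, while the methods' t-test after Benjamini-Hochberg adjustment gave 0.0779 to 0.149.

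With age, the log2 difference of Ace was 0.78 for 1427034_at (adjusted p = 0.0104, 1.72-fold higher in untreated 18 month-old than in 12 month-old mice) and 0.60 for 1451911_a_at (adjusted p = 0.012, 1.51-fold). Both age calls were lost without the first untreated 18 month-old chip (adjusted p = 0.0784 and 0.0801) and without the first 12 month-old chip (0.0542 and 0.0536). Captopril-treated mice were below the 12 month-old mice as well, by 1.57-fold (log2 difference -0.67, adjusted p = 0.0231) and 1.46-fold (-0.55, adjusted p = 0.021). That comparison failed for both probe sets without the second 12 month-old chip (adjusted p = 0.103 and 0.0925). It also failed for 1427034_at without the first captopril chip (0.137) and for 1451911_a_at without the second (0.115).

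Markers of the choroid plexus, an epithelium that carries the enzyme, were lower in the same comparison. Of 15 choroid plexus markers tested, 13 were lower and none higher in captopril-treated than in untreated 18 month-old mice. The median log2 difference was -2.36. Of all probe sets tested, 17.7% were lower and 15.9% higher with captopril, and 21.5% and 25.9% with age. Kcnj13, a potassium channel of this epithelium, averaged 244 with captopril and 1634 without (log2 difference -2.74, adjusted p = 2.96e-06). Ttr, transthyretin, read 20358 and 18370 with captopril and 17548 and 19806 in untreated 18 month-old mice, which overlap. The summed signal of the list, led by Ttr, was 23611 and 21739 with captopril and 31276 and 33439 without. It was 49670 and 49213 at 12 months. Against the 12 month-old mean, the mean log2 signal of the list was -2.04 and -1.90 with captopril and 0.0063 and -0.025 without. Ttr was 1 of 2 markers lower with age (log2 difference -0.96), 4 were higher, and the median was 0.031 (-0.077 under quantile normalization), so the list's median and its sum differ in direction there.

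Of 12 meningeal fibroblast markers, 10 were lower with captopril (median -0.95), with sums of 6340 and 6251, against 11656 and 11658 in untreated 18 month-old mice. Igf2, a growth factor made in the meninges and choroid plexus, averaged 1184 with captopril and 3380 without (log2 difference -1.51, adjusted p = 6.6e-07). With age 1 was higher and 5 lower (median -0.17), with sums of 16063 and 15971 at 12 months. Of all probe sets tested, 17.7% were lower with captopril, and 25.9% were higher and 21.5% lower with age.

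Among 11 pericyte and smooth muscle markers 7 were lower with captopril (median -0.38), and the list summed to 9499 and 9620 on the captopril chips, against 12721 and 12970 on the untreated chips of 18 months. Acta2, smooth muscle actin, was furthest apart, with 908 on either captopril chip and 1961 and 2098 on the untreated chips of 18 months. With age 6 of these 11 were higher and none lower (median 0.71), and the 12 month-old chips summed to 9120 and 9490. The shares of all probe sets were 15.9% higher and 17.7% lower with captopril, and 25.9% and 21.5% with age. Of 13 endothelial markers, 3 were higher and 1 lower with captopril (median -0.094), and 4 higher and 1 lower with age (median 0.20). Their sums were 10243 and 10225 with captopril, 9521 and 9337 in untreated mice of 18 months, and 10842 and 10754 at 12 months. The median and the sum thus differ in direction in both comparisons. The mean log2 signal of the endothelial list lay 0.23 and 0.24 above the 12 month-old mean with captopril, and 0.22 and 0.25 without. The part of these cell types in the Ace result was not tested.

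**Figure D3:**
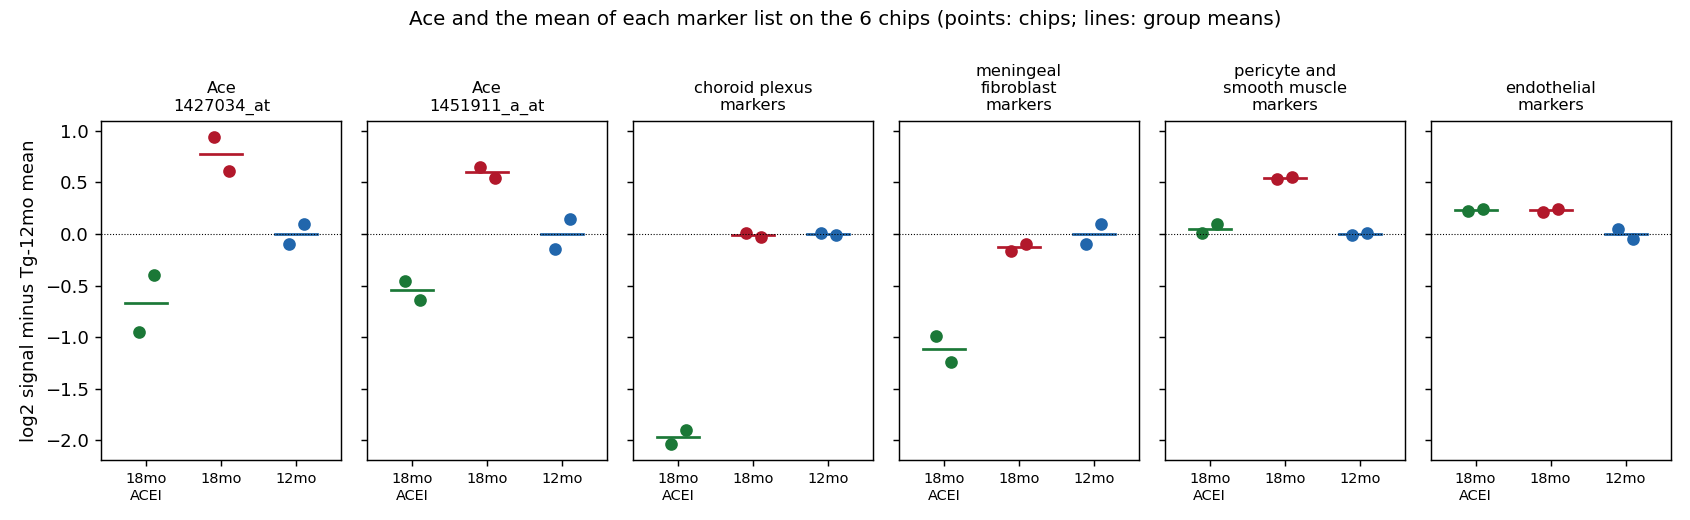
Ace and the mean of each marker list on each chip, as log2 signal minus the mean of the 12 month-old chips (points, chips; lines, group means; from left to right, captopril-treated mice of 18 months, untreated mice of 18 months, untreated mice of 12 months). On the captopril chips Ace 1427034_at lay at -0.95 and -0.40, choroid plexus markers at -2.04 and -1.90, and pericyte and smooth muscle markers at 0.0086 and 0.094. On the untreated 18 month-old chips they lay at 0.94 and 0.61, 0.0063 and -0.025, and 0.53 and 0.56.

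Mouse Ace has 2 known starts, the somatic start and a start inside the gene used in the testis, and both upstream windows are printed because Ace had the largest captopril difference among the members tested and the annotation used does not place its probe sets on either transcript. The somatic window is chr11:105967698-105967947 and the internal window chr11:105974939-105975188, both on the plus strand of GRCm38.p6 (RefSeq), 7241 bases apart. In the somatic window capitals mark GGGCGG, the GC box bound by SP factors (4 matches, beginning 140, 136, 75 and 18 bases before the start, the first pair overlapping), and TTTATA, which is TATAAA on the opposite strand, 31 bases before the start. In the internal window they mark TGAGGTCA, a cyclic AMP response-like element, 52 bases before the start, and ATTGG, which is CCAAT on the opposite strand, 25 bases before it.
Ace somatic start: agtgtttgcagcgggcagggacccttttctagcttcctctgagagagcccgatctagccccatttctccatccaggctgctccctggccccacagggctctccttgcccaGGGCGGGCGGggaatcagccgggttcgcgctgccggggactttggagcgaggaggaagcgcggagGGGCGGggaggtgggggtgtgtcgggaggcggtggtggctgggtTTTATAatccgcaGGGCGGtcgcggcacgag
Ace internal start: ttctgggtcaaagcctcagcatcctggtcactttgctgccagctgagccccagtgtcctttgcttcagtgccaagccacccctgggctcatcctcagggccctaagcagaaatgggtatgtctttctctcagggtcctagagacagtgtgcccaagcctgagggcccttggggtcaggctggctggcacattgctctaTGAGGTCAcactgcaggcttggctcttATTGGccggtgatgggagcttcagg
The somatic window has 19 CpG and a GC content of 67.2%, and the internal window 1 CpG and 58%. On both strands, GGGCGG occurs in 32.7% of the 32851 windows, CCAAT in 33.8% and TGAGGTCA in 1.94%. A match describes the sequence and is no measured binding site.

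The receptors of angiotensin II stayed below the filter on low signals. Agtr1a encodes the main AT1 receptor of rodents, and its probe set 1436739_at read 49.3 and 75.1 with captopril, 54.4 and 63.0 in untreated 18 month-old mice and 85.6 and 74.7 at 12 months. Agtr2, the AT2 receptor, which is mostly expressed before birth, read 14.4 and 16.1, 3.66 and 11.4, and 49.3 and 17.6 in the same groups (1415832_at). The mean of neither reached 100 in any group, so neither was tested. In the fit without a filter their adjusted p was between 0.143 and 0.958 in the 3 comparisons. Both read lowest on an untreated or captopril chip of 18 months and highest on a 12 month-old chip, with captopril chips of Agtr1a on either side of the untreated ones.

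Mas1 encodes the receptor of angiotensin 1-7, whose actions often oppose those of the AT1 receptor. Its probe set 1422936_at read 301 and 304 in captopril-treated mice, 229 and 179 in untreated 18 month-old mice, and 168 and 174 in 12 month-old mice. Both captopril chips were above all 4 other chips, and the untreated chips of 18 months were also above those of 12 months. The mean was 302 ± 2.24 with captopril and 204 ± 34.9 without (SD, n = 2 chips each), a log2 difference of 0.58 (SE 0.16, limma adjusted p = 0.0234). The call was lost without the first captopril chip (adjusted p = 0.0959), without the second (0.113) and without the second untreated chip of 18 months (log2 difference 0.40, adjusted p = 0.156). Against 12 month-old mice, at 171 ± 4.04 (SD, n = 2 chips), Mas1 was 1.77-fold higher with captopril (log2 difference 0.82, adjusted p = 0.00389) and kept the call in each limma fit. The age difference was 0.24, with a 95% interval of -0.12 to 0.61 (adjusted p = 0.239). Mas1 is known from hippocampal and cortical neurons. Of 18 hippocampal neuron markers, 3 were higher and 5 lower with captopril against untreated 18 month-old mice (median -0.036). Across all probe sets, 15.9% were higher and 17.7% lower. The sums of the list were 68370 and 68764 on the captopril chips and 68891 and 69694 on the untreated ones. Prox1, a transcription factor of dentate granule cells, was the furthest apart of the list, at 445 with captopril and 150 without (log2 difference 1.57, adjusted p = 0.000288). All 3 tested probe sets of Prox1 gave this call. Of other dentate granule cell genes in the list, Dsp was lower (-0.32, adjusted p = 0.0221, by 1 of 2 probe sets). C1ql2 and Calb1 were not called (0.14 and -0.029, adjusted p = 0.0928 and 0.643). Zbtb20, also in the list, was higher (0.53, adjusted p = 0.000194, by 4 of 8 probe sets). With captopril against 12 months, 7 of the 18 were higher and 4 lower (median 0.11), against 22.3% and 17.7% of all probe sets. There C1ql2, Prox1 and Zbtb20 were higher (1.25, 1.21 and 0.43, adjusted p = 5.83e-06, 0.000739 and 0.000387), Zbtb20 by 8 of 8 probe sets. C1ql2 was also higher with age (1.11, adjusted p = 7.75e-06). The part of the neuron markers in the Mas1 result was not tested.

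Atp6ap2 encodes a membrane protein that binds prorenin and is also an accessory subunit of the proton pump of lysosomes. It was measured by 3 probe sets. Probe set 1423662_at read 8787 and 8721 with captopril, 8973 and 9346 in untreated mice of 18 months and 10833 and 11907 at 12 months. Probe set 1437688_x_at read 14991 and 13830, 14585 and 14805, and 21084 and 20100 in the same groups. Probe set 1439456_x_at read 12347 and 10857, 13242 and 14040, and 13882 and 14917. In each, the captopril chips were below the 12 month-old chips, and for the first pair the untreated chips of 18 months were too.

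With age the log2 differences were -0.31, -0.49 and -0.078 (adjusted p = 0.00198, 0.000156 and 0.385), and with captopril against 12 months -0.38, -0.52 and -0.31 (0.000943, 0.000156 and 0.00737). These calls depend on the scaling. After quantile normalization the age differences were -0.020, 0.085 and 0.37 (adjusted p = 0.724, 0.132 and 0.00066) and those of captopril against 12 months -0.038, 0.13 and 0.15 (0.512, 0.0393 and 0.048), so that 4 of the 6 differences changed sign. With captopril against untreated mice of 18 months the log2 differences were -0.065, -0.029 and -0.24 (adjusted p = 0.39, 0.697 and 0.0306). The last call was lost in several limma fits, among them those without a filter (0.054), with chips scaled to their medians (0.0533) and without an intensity trend (0.119). Over the 6 chips the 3 probe sets correlated at 0.934, 0.763 and 0.681 with each other, and the 2 of Ace at 0.926.

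Enpep encodes aminopeptidase A, which turns angiotensin II into angiotensin III and in the brain is found on vessels. Its probe set 1448649_at read 185 and 163 with captopril, 158 and 173 in untreated 18 month-old mice, and 106 and 159 at 12 months. The groups of 18 months overlapped, and the lower 12 month-old chip stood 1.49-fold below the other. Log2 differences were 0.071 with captopril (95% interval -0.44 to 0.58, adjusted p = 0.828), 0.35 with age (-0.16 to 0.86, adjusted p = 0.233) and 0.42 with captopril against 12 months (-0.093 to 0.93, adjusted p = 0.17). Without the second 12 month-old chip the last 2 were 0.63 (adjusted p = 0.0396) and 0.70 (0.0324).

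Beyond the members, 3 lists of the pathway were described, each gene by its brightest probe set. Of 15 other peptidases that form or degrade angiotensins, 14 had a probe set and 9 were tested. With captopril against untreated 18 month-old mice, 1 was higher and 4 lower (median log2 difference -0.27), against 15.9% and 17.7% of all probe sets. With age, 6 were higher and none lower (median 0.48), and with captopril against 12 months 3 were higher and 2 lower (median 0.17). The shares of all probe sets were 25.9% and 21.5% with age, and 22.3% and 17.7% with captopril against 12 months. With each gene's tested probe sets averaged, the counts higher and lower were 1 and 2 for captopril, 4 and 0 for age, and 2 and 0 for captopril against 12 months, and the age median was 0.069.

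The peptidase that was higher with captopril was Mme, neprilysin, which forms angiotensin 1-7 and also degrades amyloid β. It read 185 and 184 with captopril and 123 and 101 in untreated mice of 18 months, with no overlap (log2 difference 0.73, adjusted p = 0.0259), and at 12 months it read 152 and 121. Prcp, prolylcarboxypeptidase, which turns angiotensin II into angiotensin 1-7, read 170 and 193 with captopril and 295 and 314 without (log2 difference -0.75, adjusted p = 0.00781), a call that 1 of its 2 tested probe sets gave. With age Prcp was higher (0.50, adjusted p = 0.03), from the same probe set, with 240 and 193 at 12 months.

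Ctsd, cathepsin D, a lysosomal protease that can release angiotensin I from its precursor, read 4778 and 4598 with captopril and 6351 and 6642 without (log2 difference -0.47, adjusted p = 0.000193). At 12 months it read 4667 and 4716, below both untreated chips of 18 months. Thop1, thimet oligopeptidase, which forms angiotensin 1-7 from angiotensin I, averaged 742 with captopril and 926 without (-0.32, adjusted p = 0.0123), and was higher with age (0.57, adjusted p = 0.000437, 624 at 12 months). Rnpep, aminopeptidase B, was the furthest up with age (0.71, adjusted p = 0.00102), at 658 in untreated 18 month-old mice and 400 at 12 months. Prep, prolyl oligopeptidase, was higher with age (0.54, adjusted p = 0.0138) and with captopril against 12 months (0.56, adjusted p = 0.0137), each by 1 of 2 probe sets.

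**Figure D4:**
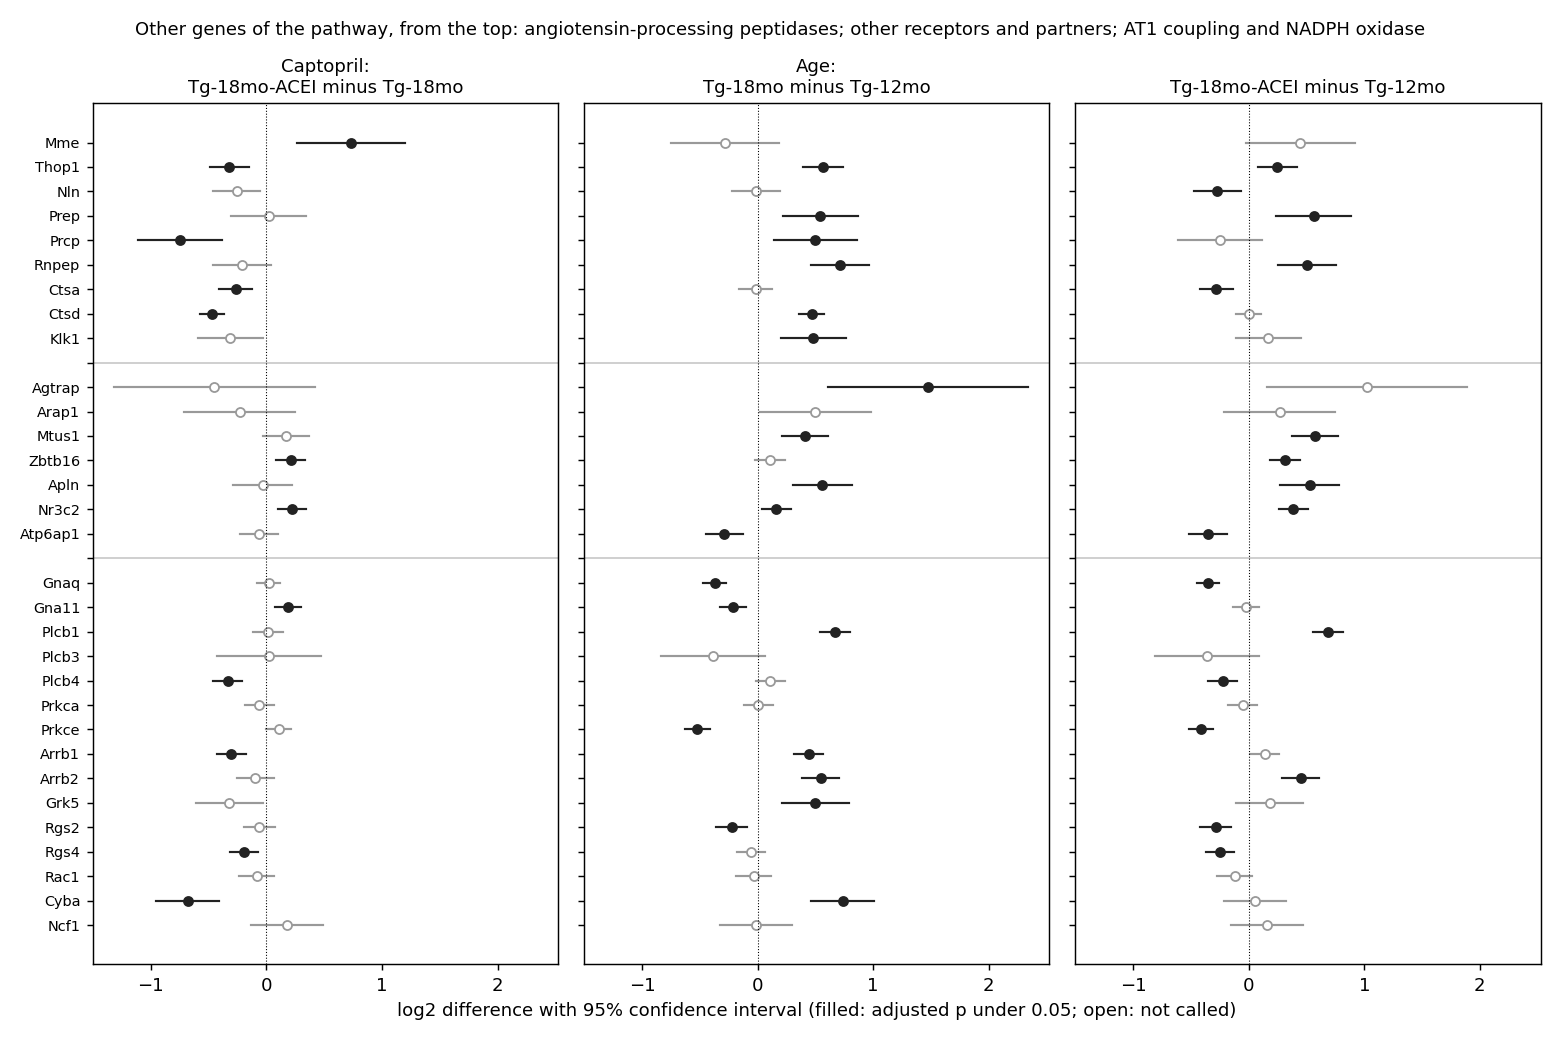
Log2 differences with 95% confidence intervals of the tested genes of the 3 pathway lists, each by its brightest probe set, for captopril-treated against untreated 18 month-old mice, the 2 untreated ages (18 against 12 months), and captopril-treated 18 month-old against 12 month-old mice (filled points, adjusted p under 0.05). Called below 0 with captopril and above 0 with age were Cyba (-0.68 and 0.74), Prcp (-0.75 and 0.50), Ctsd (-0.47 and 0.47), Thop1 (-0.32 and 0.57) and Arrb1 (-0.30 and 0.44). Gna11 was called the other way (0.19 and -0.21). Both comparisons use the untreated 18 month-old chips, with opposite sign, so their directions are not independent.

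Of 13 other receptors and binding partners, 12 had a probe set and 7 were tested. With captopril 2 were higher and none lower (median -0.031), Nr3c2, the mineralocorticoid receptor (3102 with captopril and 2663 without, log2 difference 0.22, adjusted p = 0.0154), and Zbtb16, a transcription factor that binds the prorenin receptor (1695 and 1467, 0.21, adjusted p = 0.0219, by 1 of 3 probe sets). With age 4 were higher and 1 lower (median 0.41). Agtrap, a protein that binds the AT1 receptor and promotes its uptake into the cell, read 246 and 242 in untreated 18 month-old mice and 54.1 and 142 at 12 months (log2 difference 1.47, adjusted p = 0.0126, 1 of 2 probe sets). Apln, the ligand of the apelin receptor, averaged 454 in untreated 18 month-old mice and 307 at 12 months (0.56, adjusted p = 0.00374). Mtus1, a partner of the AT2 receptor, was higher with age (0.41, adjusted p = 0.00522, by 2 of 3 probe sets). Atp6ap1, an accessory subunit of the same proton pump as Atp6ap2, was lower with age (-0.29, adjusted p = 0.0104). After quantile normalization no gene of this list was called lower. With captopril against 12 months, 4 were higher and 1 lower (median 0.38). Of all probe sets, 15.9% were higher and 17.7% lower with captopril, and 25.9% and 21.5% with age. For captopril against 12 months the shares were 22.3% and 17.7%.

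Of 22 genes of AT1 receptor coupling and NADPH oxidase, 18 had a probe set and 15 were tested. With captopril 1 was higher and 4 lower (median -0.063), against 15.9% and 17.7% of all probe sets. Cyba, the p22phox subunit shared by oxidases that make superoxide, read 423 and 361 with captopril, 668 and 589 in untreated 18 month-old mice, and 396 and 358 at 12 months. It was lower with captopril (log2 difference -0.68, adjusted p = 0.00321) and higher with age (0.74, adjusted p = 0.00124). Microglia express the phagocyte oxidase, and of 14 microglia markers 2 were higher and 6 lower with captopril (median -0.15). Against 25.9% and 21.5% of all probe sets, 8 of these markers were higher and 2 lower with age (median 0.19). Their sums were 22162 and 21846 with captopril, 22822 and 23549 in untreated mice of 18 months and 21387 and 21499 at 12 months, and their part in the Cyba result was not tested. Cybb, the catalytic subunit, and Ncf4 and Nox4 did not reach the filter.

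Of the coupling proteins, Plcb4 (a phospholipase C), Arrb1 (a β-arrestin) and Rgs4 (a regulator of G-protein signalling) were lower with captopril. Their log2 differences were -0.34, -0.30 and -0.19 (adjusted p = 0.00213, 0.00371 and 0.0257). The call of Plcb4 was given by 1 of 2 tested probe sets and that of Rgs4 by 1 of 3. With age 5 genes were higher and 4 lower (median -0.015), against 25.9% and 21.5% of all probe sets. Plcb1 averaged 5098 in untreated 18 month-old mice and 3203 at 12 months (0.67, adjusted p = 4.69e-05, by 2 of 4 probe sets). Arrb2 averaged 1203 and 825 (0.55, adjusted p = 0.000412, by 2 of 2). Prkce, protein kinase C ε, averaged 7555 and 10833 (-0.52, adjusted p = 5.88e-05, by 2 of 3). With captopril against 12 months 2 were higher and 5 lower (median -0.053), against 22.3% and 17.7% of all probe sets. When each gene's tested probe sets were averaged, 5 were instead higher and 3 lower (median 0.13). Of 6 red blood cell markers, 3 had a probe set, and none of those reached the filter.

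The probe sets most like a member over the 6 chips were named by Pearson's r of log2 signals, among probe sets with a single gene symbol and an SD of at least 0.5 of the member's. With 6 chips in 3 groups, r mostly describes the order of the groups. Ace 1427034_at was followed by Zic1 (r = 0.991), Cdk5rap2 (0.986) and Synpo (0.985), and 0.677% of the 5021 probe sets compared had r above 0.95. Zic1 read 1654 and 2026 with captopril, 3477 and 3083 in untreated 18 month-old mice and 2486 and 2431 at 12 months. Agt was followed by Ackr4 and B3galt6 (r = 0.990 each) and Tkt (0.986), with 0.457% of 7002 above 0.95. Mas1 was followed by Top1 (r = 0.995), Apc and Pde4b (0.994 each), with 0.979% of 12365 above 0.95. Atp6ap2 1437688_x_at was followed by Dusp8 (r = 0.999), Serp1 and Pfn2 (0.997 each), with 4.46% of 16965 above 0.95. Pfn2 read 16176 and 15026 with captopril, 15555 and 16506 in untreated mice of 18 months and 23724 and 23020 at 12 months.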

How the data were processed

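Hippocampal RNA of male Tg2576 mice, pooled from 4 mice per chip, had been hybridised to Affymetrix MG430 2.0 chips, 2 per group. The deposited intensity values, 1 linear signal per probe set and chip, came from the Affymetrix software GCOS, in which the authors had set the target value to 600. The deposited values bear this out: with 2 percent trimmed from either end, each chip averages 600. The number of chips limits the precision. Detection calls and image data were not used here. The 64 control probe sets among 45101 were not tested. Of the 45101, 34958 carried 1 gene symbol in the platform annotation, 932 several and 9211 none there.

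Probe sets averaging at least 100 in 1 or more groups, 23262 in all, were tested. Their log2 signals on all 6 chips entered a linear model of 3 group means in limma 3.58.1 (R 4.3.3), moderated by eBayes with a trend on mean intensity, which left 3 residual degrees of freedom and a prior of 5.37. P-values were adjusted over all 23262 (Benjamini-Hochberg, 0.05). The script was tested on simulated data. Samples were grouped by their labels. Alternative settings were a constant of 32 before log2, filters of none and of a mean of 200 on all chips, quantile or median scaling, fits of the compared groups alone, replicate number as block, eBayes untrended, the methods' t-test (linear or log2), and leaving out each chip.

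For 3 pathway lists and 8 marker lists, each gene was represented by its brightest probe set, with the mean of its tested probe sets and quantile normalization as alternatives. The text names every member probe set, of each list genes among the 4 called members with the largest absolute differences in a comparison, and the 3 probe sets most like a called member. The age values of Ctsd, Arrb1 and Gna11 and the captopril values of Ttr, Dsp, C1ql2, Calb1 and Gna11 were added after they were seen. The members and lists were chosen with earlier results of these data known. Promoter windows came from RefSeq (GRCm38.p6), in which 8 of 9 members had a window, and were searched on both strands. Tables were read with pandas 2.3.3 and figures drawn with matplotlib 3.10.9 in Python 3.11.15.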

Additional observations from a re-analysis of the deposited data

Results flagged for a closer look

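The 18S rRNA control probe set (3′), which lies outside the gene measurements, averaged 10681.5 on the untreated 18 month-old chips, 5.03-fold the mean of 2123 on the 12 month-old chips. It averaged 2107 on the captopril-treated chips, so that untreated mice of 18 months read 5.07-fold above them. Its part in the comparisons with untreated 18 month-old mice was not tested.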

How the results depend on the processing

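Of 381 values of member probe sets under the alternatives, 313 kept their direction and their side of the threshold, 55 kept the direction and lost the call, 3 gained one and 10 changed direction. With the methods' t-test after adjustment, on linear and on log2 signals, 0 member probe sets were called in either direction in all 3 comparisons. Over all probe sets it called 79 higher and 39 lower with captopril on linear signals and 44 and 27 on log2 signals (limma 3690 and 4125), with age 636 and 560, and 564 and 495 (6017 and 4990), and with captopril against 12 months 118 and 134, and 9 and 13 (5193 and 4129). Quantile normalization called 3 members higher and 1 lower with age in place of 2 and 3 (over all probe sets, 5141 and 5058 of 23262), and with captopril against 12 months 3 higher and 3 lower in place of 1 and 6 (4258 and 4115).

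When a chip was left out, its group's lone chip was taken to vary like the others. Members called with captopril then numbered 0 to 2 higher and 2 to 3 lower (over all probe sets, 2261 to 4036 and 2084 to 4597). With age 0 to 3 were higher and 3 lower (4298 to 5635 and 3759 to 4736). With captopril against 12 months 1 to 2 were higher and 3 to 6 lower (3484 to 4844 and 3087 to 3871), the 3 without the second 12 month-old chip.

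Some differences that changed sign were small and others were not, and 3 of the changes were in differences called in the main fit. With a chip left out, the captopril difference of Agt ranged from -0.26 to 0.43, that of Enpep from -0.018 to 0.16 and that of Atp6ap2 1437688_x_at from -0.087 to 0.029. The last was 0.046 after quantile normalization and 0.00010 with chips scaled to their medians. After quantile normalization, Atp6ap2 1437688_x_at and 1439456_x_at were 0.085 and 0.37 with age, and 0.13 and 0.15 with captopril against 12 months. All of these but the 0.085 were then called higher. The cause was not tested.

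The replicate numbers did not pair the chips: the differences of replicate 1 and 2 correlated between groups at -0.030, -0.052 and 0.034. With the replicate block the captopril call of Atp6ap2 1439456_x_at was lost (adjusted p = 0.0518), and over all probe sets 3456 were higher and 3762 lower with captopril.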
